A study of Homo sapiens with 6 samples.

Results

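Hypoxia-inducible factors (HIFs) are transcription factors that switch on genes when oxygen is short. Each is a pair of an oxygen-regulated alpha subunit and the stable partner ARNT, and the VHL protein marks the alpha subunits for destruction when oxygen is present. Clear cell renal carcinoma cells that have lost VHL keep HIF targets switched on in normal oxygen. Described here are 33 HIF target genes that lie outside glycolysis, chosen by symbol from a count table of 60649 genes. The list was chosen with earlier results of these data known. The targets encode enzymes of acid balance, secreted factors, surface proteins, transcription factors, collagen-modifying enzymes, and proteins of lipid, glycogen and nucleotide metabolism. All 33 had a row in the table, and 30 of them were among the 16039 genes expressed enough to test.

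RNA was sequenced from 786-O cells, a long-established human cell line of clear cell renal carcinoma without working VHL. The groups were 786-O cells with shRNA1 against the long non-coding RNA LINC02068 (2 libraries), 786-O cells with shRNA2 against the same RNA (2 libraries), and 786-O cells with the hairpin shControl (2 libraries), which the labels give as wild type. All cells were grown in RPMI-1640 with serum and received no other treatment. The labels give 1 cell line and say neither how the hairpins were delivered nor whether replicates were grown apart. The spread behind every p-value may therefore be technical.

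LINC02068 had 9 and 2 counts with shRNA1, 17 and 10 counts with shRNA2, and 20 and 32 counts in shControl. Its log2 fold change was −1.70 ± 0.75 with shRNA1 (adjusted p = 0.0690) and −1.21 ± 0.68 with shRNA2 (adjusted p = 0.148), and it passed the threshold for the mean of both hairpins alone (−1.46 ± 0.59, adjusted p = 0.0447). That call was lost without shRNA1 replicate 2 (log2 fold change −1.02, adjusted p = 0.124), without shRNA2 replicate 1 (0.0986) or 2 (0.0972), and without shControl replicate 1 (0.16) or 2 (0.219). It was also lost in DESeq2 (adjusted p = 0.107) and with a replicate block (0.0506). With shRNA1 the change of LINC02068 was −3.32 without shRNA1 replicate 1 (adjusted p = 0.0159) and −0.85 without shRNA1 replicate 2 (not called). The shRNA1 change also passed under total counts (0.0494) and with only the groups compared (0.0498). Without shRNA1 replicate 1 the mean of both hairpins was −2.26. Total counts ran from 15376448 to 37311846 per library. The chi-square per degree of freedom, over tested genes with at least 20 counts in the pair of libraries, was 5.02 to 5.76 between libraries of different hairpins, 95.9 to 170 between a hairpin and a control library, and 4.57 to 6.64 between replicates. Libraries of the 2 hairpins therefore lay about as close to each other as replicates did. All 7 markers of renal epithelium and clear cell carcinoma, among them PAX8 and VIM, were expressed and were called higher for the mean of both hairpins, where 28.6% of all tested genes were. Their part in the results was not tested. Of the leukocyte markers 4 of 5 were at 0 in every library. The other, CD68, had 36.9 to 44.0 CPM with the hairpins and 35.8 to 39.6 CPM in shControl, and was not called. AC016876.2 shares 81.73% of the exon length of CD68 on the same strand, with 3854 counts in all against 5335 for CD68. The endothelial markers summed to 0.269 to 1.36 CPM with the hairpins and 0.785 to 1.13 CPM in shControl. The fibroblast markers summed to 11.8 to 13.2 CPM with the hairpins and 16.4 to 16.6 CPM in shControl.

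Most of the HIF targets were lower with either hairpin. Levels are CPM, counts scaled to library size with TMM factors, errors are standard errors of the log2 fold change, and a gene was called at an edgeR adjusted p under 0.05. With shRNA1 21 of 30 tested genes were lower and 4 higher, where 52.4% of all tested genes were called, 25.6% of them lower and 26.8% higher as shares of the tested genes. With shRNA2 23 were lower and 4 higher, where 52.8% of all tested genes were called, 26.1% lower and 26.7% higher. For the mean of both hairpins 22 were lower (73.3%), 4 were higher and 4 were not called, against 57.5% of all tested genes called, 28.9% lower and 28.6% higher. The median log2 fold change of the tested targets was −0.56 with shRNA1, −0.61 with shRNA2 and −0.55 for their mean, and that of all tested genes for the mean was −0.03. Both comparisons use the same control libraries. Scaling to total counts moved the median of all tested genes to −0.18 and called 24 targets lower and 3 higher.

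The targets together took 0.535 to 0.544% of all counts in the 4 hairpin libraries and 0.951% in both shControl libraries. In 23 of 30 tested targets all hairpin libraries lay below both controls, and in 4 all lay above. Over all tested genes, 67.0% had hairpin and control libraries that did not overlap, against 90.0% of the targets. The overlapping genes were CA9, MIF and PLOD2. No target was called between shRNA1 and shRNA2 by edgeR, where 0.0312% of all tested genes were called (0.00623% higher, 0.0249% lower), and none had an unadjusted p under 0.05 or was called by DESeq2. The absolute log2 difference between the hairpins had a median of 0.05 and was under 0.10 in 23 of 30 genes. It exceeded 0.20 in 3 genes, MIF (0.33 ± 0.29), RAB20 (0.24 ± 0.15) and LOX (0.21 ± 0.11), all with adjusted p-values of 0.918 or more.

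**Figure D1:**
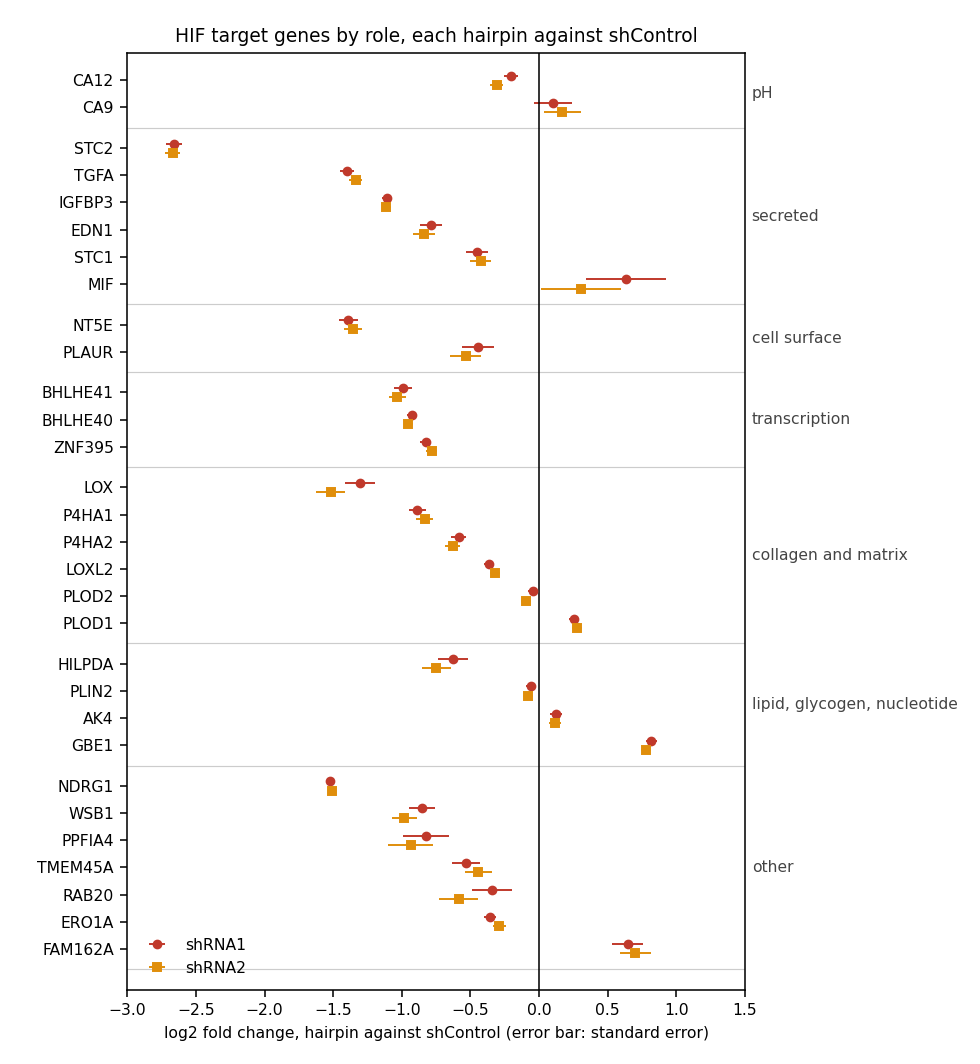
Log2 fold change of the 30 tested HIF targets (x axis) by role, for shRNA1 (circles) and shRNA2 (squares) against shControl, with bars of 1 standard error and 2 libraries in each group. Most points lie left of 0, STC2 farthest. PLOD1, AK4, GBE1 and FAM162A, called higher, lie to the right with both hairpins, as do MIF and CA9, which were not called.

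HIFs bind DNA at a short core, ACGTG or GCGTG, read on either strand. RefSeq promoter windows on GRCh38.p14, from 250 bases before to 50 after a start site, were found for 27 of the 33 targets. The core was present in 24 of these 27 genes (88.9%), and in 69.5% of the 11026 tested genes with a window. The letters ACGTG were present in 17 of 27 targets (63.0%) and in 32.1% of the tested genes. GCGTG was present in 18 of 27 targets (66.7%) and in 57.6% of the tested genes. Of these 27 targets 3 were not tested. The E box CACGTG, which overlaps ACGTG and is read by other factors, was present in 7 targets (25.9%) and in 12.5% of the tested genes. The core stood in 14 of 16 windowed targets called lower, 4 of 4 called higher and 4 of 4 not called. TGATGNAA, the core of the C/EBP-ATF response element, was in none of the 27 and in 2.75% of the tested genes.

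The 6 stretches below show the core in the windows of genes that were lower (STC2, LOX, BHLHE40), higher (GBE1) and not called (PLIN2, CA9). Each lies before the RefSeq start site used for its window and is written 5′ to 3′ on the gene's strand, with capitals at whole ACGTG or GCGTG matches on either strand. GENCODE 29 has transcripts of STC2, BHLHE40, GBE1, PLIN2 and CA9 that start farther out. The stretches of STC2, BHLHE40, GBE1 and CA9 lie wholly in exons of GENCODE 29 transcripts of the same gene and are kept short. The LOX and PLIN2 stretches lie outside the exons of every GENCODE 29 transcript of those genes. The PLIN2 stretch still lies inside the span of its gene (chr9:19108375-19149290), whereas the LOX stretch lies outside its gene. The stretches lie on GRCh38.p14 at chr5:173328633-173328661 (STC2, minus strand), chr5:122078361-122078459 (LOX, minus strand), chr3:4979187-4979208 (BHLHE40, plus strand), chr3:81761785-81761813 (GBE1, minus strand), chr9:19127593-19127627 (PLIN2, minus strand) and chr9:35673898-35673926 (CA9, plus strand).
STC2: cacactcatacaCACGCACGCaaacgcgt
LOX: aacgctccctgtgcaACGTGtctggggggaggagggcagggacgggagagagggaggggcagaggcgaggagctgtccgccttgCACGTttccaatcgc
BHLHE40: tccaaCACGTGagactcatgtg
GBE1: caggtgccagccGCGTGagtgggcggaga
PLIN2: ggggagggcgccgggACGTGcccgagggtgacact
CA9: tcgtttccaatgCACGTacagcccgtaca
The whole STC2 window has 3 GCGTG matches, of which 2 are in capitals, and no ACGTG. The LOX stretch has 2 ACGTG matches, and the capitals CACGTG in the BHLHE40 stretch are ACGTG read on both strands.

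Among the secreted factors 5 of 6 were lower with each hairpin, and MIF was not called. Of all tested genes 25.6% were lower with shRNA1 and 26.1% with shRNA2. STC2, stanniocalcin 2, is a secreted glycoprotein that is also induced by ER stress, and its gene spans chr5:173314713-173329503 in GENCODE 29 on GRCh38. STC2 had 62.5 and 54.8 CPM with shRNA1, 57.7 and 58.7 CPM with shRNA2, and 361 and 379 CPM in shControl. Every hairpin library was far below both controls, at 15.8% of the control mean with shRNA1 and 15.7% with shRNA2. The log2 fold change was −2.66 ± 0.06 (adjusted p = 3.3e-14) with shRNA1 and −2.67 ± 0.06 (2.3e-14) with shRNA2, the largest change of any tested target.

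TGFA, a ligand of the EGF receptor that HIF-2 induces in renal carcinoma cells, spans chr2:70447280-70554193. It had 86.9 and 91.9 CPM with shRNA1, 96.1 and 90.9 CPM with shRNA2, and 240.4 and 232 CPM in shControl. The groups did not overlap, and the log2 fold changes were −1.40 ± 0.05 and −1.34 ± 0.05 (adjusted p = 5.0e-12 and 5.8e-12). IGFBP3, which binds insulin-like growth factors outside the cell, spans chr7:45912245-45921874. It had 779.7 and 766 CPM with shRNA1, 759 and 784 CPM with shRNA2, and 1639.9 and 1695 CPM in shControl. The hairpin libraries stood at 46.4 and 46.3% of the control mean (−1.11 ± 0.03 with each hairpin, adjusted p = 4.7e-13 and 3.9e-13).

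EDN1 encodes endothelin 1, a peptide that constricts vessels. It had 36.8 and 42.0 CPM with shRNA1, 39.3 and 36.8 CPM with shRNA2, and 66.1 and 70.2 CPM in shControl, a log2 change of −0.79 ± 0.08 and −0.84 ± 0.08. STC1, the close relative of STC2, fell by less. It had 46.3 and 42.5 CPM with shRNA1, 45.9 and 44.4 CPM with shRNA2, and 56.8 and 64.3 CPM in shControl (−0.45 ± 0.08 and −0.43 ± 0.08, adjusted p = 2.1e-04 and 2.9e-04). MIF is a cytokine that holds back macrophage movement. On the other strand MIF-AS1 overlaps 61.95% of the MIF exon length, with 78 counts in all against 12215 for MIF. On the same strand AP000350.4 overlaps 32.19%, with 6 counts in all. MIF had 108 and 110.3 CPM with shRNA1, 97.8 and 75.4 CPM with shRNA2, and 54.6 and 85.0 CPM in shControl. The ratio between its control libraries was the largest of any tested target, and it was not called with shRNA1 (0.64 ± 0.29, adjusted p = 0.174) or shRNA2 (0.31 ± 0.29, 0.461). Without shControl replicate 2 it was called higher (1.00 and 0.67, adjusted p = 0.00909 and 0.0334). Without shControl replicate 1 it was not called, and its change was 0.35 with shRNA1 and 0.024 with shRNA2.

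**Figure D2:**
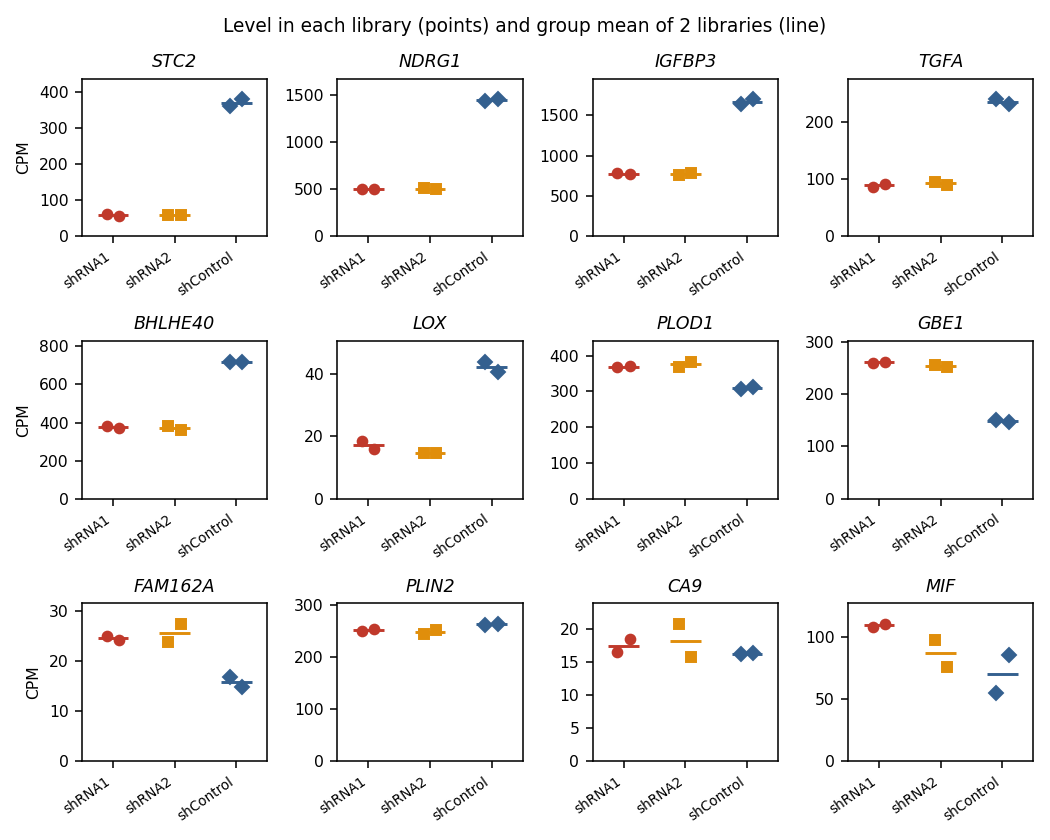
CPM of 12 HIF targets (y axis, from 0) in each library of shRNA1, shRNA2 and shControl, with a line at the mean of the 2 libraries. STC2, NDRG1, IGFBP3, TGFA, BHLHE40 and LOX sit lower in all hairpin libraries, PLOD1, GBE1 and FAM162A higher, and the PLIN2 groups lie close while those of CA9 and MIF overlap.

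Both tested surface genes were lower with each hairpin, where 25.6% (shRNA1) and 26.1% (shRNA2) of all tested genes were lower. NT5E encodes CD73, the enzyme that makes adenosine outside the cell, and spans chr6:85449584-85495791. It had 35.3 and 35.04 CPM with shRNA1, 36.1 and 35.8 CPM with shRNA2, and 91.7 and 92.5 CPM in shControl. Within each group the 2 libraries were nearly equal, and the log2 fold change was −1.39 ± 0.07 with shRNA1 and −1.36 ± 0.07 with shRNA2 (adjusted p = 1.4e-10 with each). PLAUR, the urokinase receptor, had 19.9 and 17.8 CPM with shRNA1, 18.9 and 16.3 CPM with shRNA2, and 26.6 and 24.7 CPM in shControl (−0.44 ± 0.12 and −0.54 ± 0.11, adjusted p = 0.00496 and 0.00102). With shRNA1 the PLAUR call was lost without shRNA1 replicate 2 (−0.35, adjusted p = 0.0612). CXCR4, a chemokine receptor and a textbook HIF target, was near absent from these cells. It had no counts in any hairpin library, where 3 counts would be 0.0882 CPM over the shRNA1 libraries and 0.0527 CPM over the shRNA2 libraries, and 4 counts in shControl (0.0857 CPM, 95% exact Poisson interval 0.0233 to 0.219, counting error only).

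All 3 tested transcription factors were lower with each hairpin, and by similar amounts, where 25.6% (shRNA1) and 26.1% (shRNA2) of all tested genes were lower. BHLHE40 and BHLHE41 encode the DEC proteins, related repressors that bind the E box and act in the circadian clock. BHLHE40 (chr3:4979116-4985323) had 384 and 372 CPM with shRNA1, 379 and 363 CPM with shRNA2, and 720.2 and 717 CPM in shControl. Its log2 fold change was −0.93 ± 0.03 and −0.95 ± 0.03 (adjusted p = 8.2e-12 and 5.2e-12), with no overlap between groups. BHLHE41 had 59.6 and 61.0 CPM with shRNA1, 61.3 and 55.5 CPM with shRNA2, and 121 and 119 CPM in shControl (−0.99 ± 0.06 and −1.03 ± 0.06). On the other strand SSPN overlaps 4.10% of the exon length of BHLHE41, and it was lower too (−2.45 ± 0.13 for the mean of both hairpins), with 2330 counts in all against 11001 for BHLHE41. ZNF395, a zinc finger factor, had 287 and 311 CPM with shRNA1, 301 and 315 CPM with shRNA2, and 530.1 and 529.7 CPM in shControl (−0.82 ± 0.04 and −0.78 ± 0.04). FBXO16 shares 34.9% of the exon length of ZNF395 on the same strand but had 220 counts in all against 52375. RORA, a nuclear receptor, had 0 counts with shRNA1, 3 with shRNA2 and 8 in shControl, and did not pass the filter on low counts.

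The collagen and matrix enzymes split. Prolyl hydroxylases (P4HA1 and P4HA2) and lysyl hydroxylases (PLOD1 and PLOD2) modify collagen chains inside the cell, and lysyl oxidases (LOX and LOXL2) cross-link collagen outside it. LOX (chr5:122063195-122078360) had 18.5 and 15.7 CPM with shRNA1, 14.7 and 14.7 CPM with shRNA2, and 43.8 and 40.5 CPM in shControl. All hairpin libraries were below the controls, at −1.30 ± 0.11 and −1.52 ± 0.11 (adjusted p = 5.8e-08 and 8.2e-09). LOXL2, far more abundant, had 730.3 and 763 CPM with shRNA1, 749 and 792 CPM with shRNA2, and 952 and 971 CPM in shControl, a smaller change of −0.37 ± 0.04 and −0.32 ± 0.03.

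P4HA1 had 53.4 and 49.9 CPM with shRNA1, 53.4 and 53.8 CPM with shRNA2, and 94.3 and 96.5 CPM in shControl (−0.89 ± 0.06 and −0.83 ± 0.06). P4HA2 had 87.7 and 85.7 CPM with shRNA1, 86.9 and 81.2 CPM with shRNA2, and 128 and 132 CPM in shControl (−0.59 ± 0.05 and −0.63 ± 0.05). The lysyl hydroxylases did not share this fall. PLOD1 (chr1:11934205-11975538) had 369 and 370.1 CPM with shRNA1, 368 and 383 CPM with shRNA2, and 306 and 313 CPM in shControl, and it rose by 0.26 ± 0.04 and 0.28 ± 0.04 (adjusted p = 1.9e-05 and 7.3e-06). PLOD2 had 843 and 787 CPM with shRNA1, 799 and 777 CPM with shRNA2, and 855 and 827 CPM in shControl. Its groups overlapped, and it was not called with shRNA1 (−0.05 ± 0.04, adjusted p = 0.317) and just called lower with shRNA2 (−0.09 ± 0.04, 0.0419). The shRNA2 call was lost with RLE factors (adjusted p = 0.0512) and with no filter (0.0586). It was also lost without shRNA1 replicate 1 (0.0726) or 2 (0.0699), without shRNA2 replicate 2 (0.169) and without shControl replicate 1 (0.197). For the mean of both hairpins PLOD2 was not called (−0.07 ± 0.03, adjusted p = 0.0714), but was lower with the replicate block (0.0188), the stricter filter (0.0154), total counts (−0.23, 3.5e-05) and without shRNA2 replicate 1 (0.0330). Without shRNA1 replicate 2 its change with shRNA1 was 0.02.

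The metabolic targets also went both ways. GBE1, the branching enzyme that builds glycogen, spans chr3:81489699-81762161. It had 259 and 262 CPM with shRNA1, 256 and 252 CPM with shRNA2, and 150.0 and 146 CPM in shControl. Every hairpin library was above both controls (0.82 ± 0.04 and 0.78 ± 0.04, adjusted p = 1.0e-10 and 1.5e-10), the largest rise among the tested targets. HILPDA, a small lipid droplet protein that inhibits the lipase ATGL, had 17.9 and 18.9 CPM with shRNA1, 16.4 and 17.7 CPM with shRNA2, and 29.5 and 27.6 CPM in shControl (−0.63 ± 0.11 and −0.75 ± 0.11).

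PLIN2, which coats the lipid droplets of clear cell carcinoma, had 250.4 and 255 CPM with shRNA1, 246 and 252 CPM with shRNA2, and 263 and 264 CPM in shControl. The hairpin libraries lay just below both controls, but PLIN2 was not called (−0.06 ± 0.04, adjusted p = 0.194, and −0.08 ± 0.04, 0.0686). Under total counts it was called lower (−0.21 and −0.24, adjusted p = 0.000123 and 3.1e-05), and so it was under the stricter filter with shRNA2 (−0.10, 0.0189). AK4, a mitochondrial kinase that balances nucleotide pools, had 242 and 224 CPM with shRNA1, 233 and 228 CPM with shRNA2, and 218 and 209 CPM in shControl. The rise was small (0.12 ± 0.04 and 0.11 ± 0.04, adjusted p = 0.0264 and 0.0376) and it turned to −0.028 and −0.045 under total counts. The mean of both hairpins (0.12 ± 0.04, adjusted p = 0.0138) lost its call with no filter (0.0803) and without shControl replicate 2 (0.202). In DESeq2 AK4 was not called with either hairpin (adjusted p = 0.052 and 0.0539), and reads of its near-identical copies AK4P1 and AK4P3, counted at 976 and 506 in all against 30938 for AK4, may be shared with it. Leaving out shRNA1 replicate 1 (0.178) or shControl replicate 2 (0.228) ended its call with shRNA1, as did no filter (0.181). The call with shRNA2 ended with no filter (0.145), under the stricter filter (0.0718), without shRNA2 replicate 1 (0.188) or 2 (0.0687), or without shControl replicate 1 (0.0534) or 2 (0.281).

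The carbonic anhydrases CA9 and CA12 make bicarbonate and acid at the cell surface. CA12 had 121 and 124 CPM with shRNA1, 110.4 and 118 CPM with shRNA2, and 143 and 139.9 CPM in shControl, a modest fall with each hairpin (−0.20 ± 0.05 and −0.31 ± 0.05, adjusted p = 0.00276 and 7.2e-05). CA9, a marker of HIF-1 activity, was low in these cells and was not called. It had 16.5 and 18.5 CPM with shRNA1, 20.8 and 15.7 CPM with shRNA2, and 16.3 and 16.4 CPM in shControl (0.10 ± 0.14 and 0.17 ± 0.14, adjusted p = 0.569 and 0.319). ARHGEF39, a gene on the other strand, shares 643 bases with the CA9 exons (38.5% of their length) and had 2258 counts in all against 2442 for CA9. Whether reads were counted by strand is not given in the sources used here, so reads of CA9 and ARHGEF39 in the shared bases cannot be told apart. ARHGEF39 was not called either (0.14 ± 0.12 for the mean of both hairpins).

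NDRG1, a stress-induced protein long used as a hypoxia marker, showed the smallest error of the targets that fell by over 1 log2 unit. It had 502 and 501 CPM with shRNA1, 509.9 and 501 CPM with shRNA2, and 1430.2 and 1449.8 CPM in shControl. The 4 hairpin libraries lay within 10 CPM of each other, at −1.52 ± 0.03 and −1.51 ± 0.03 (adjusted p = 1.0e-14 and 9.5e-15). WSB1, an adaptor of a ubiquitin ligase, had 21.8 and 21.3 CPM with shRNA1, 20.3 and 19.04 CPM with shRNA2, and 39.7 and 38.1 CPM in shControl (−0.85 ± 0.09 and −0.98 ± 0.09). PPFIA4, a liprin scaffold protein, had 6.65 and 7.74 CPM with shRNA1, 6.20 and 7.22 CPM with shRNA2, and 13.2 and 12.3 CPM in shControl (−0.82 ± 0.17 and −0.94 ± 0.17). Both genes had no overlap between hairpin and control libraries.

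ERO1A, the ER oxidase that drives disulfide formation, had 121 and 119.9 CPM with shRNA1, 127 and 126 CPM with shRNA2, and 157 and 153 CPM in shControl (−0.36 ± 0.05 and −0.29 ± 0.04). TMEM45A, a membrane protein, had 23.4 and 26.4 CPM with shRNA1, 24.6 and 28.7 CPM with shRNA2, and 34.5 and 37.6 CPM in shControl (−0.53 ± 0.10 and −0.44 ± 0.10). RAB20, a small GTPase of the endosome, had 9.67 and 10.8 CPM with shRNA1, 8.59 and 8.71 CPM with shRNA2, and 13.4 and 12.6 CPM in shControl. RAB20 was called lower with shRNA2 (−0.59 ± 0.14, adjusted p = 0.00291) but not with shRNA1 (−0.34 ± 0.15, 0.0620), and its hairpins did not differ detectably (0.24 ± 0.15, 0.938). With shRNA1 it passed under total counts (−0.49, adjusted p = 0.0101) and the stricter filter (0.0457), and for the mean (−0.46 ± 0.12, 0.00452) it was lost without shControl replicate 1 (0.0503). FAM162A, a mitochondrial protein linked to cell death, rose, with 24.99 and 24.1 CPM with shRNA1, 23.8 and 27.4 CPM with shRNA2, and 16.7 and 14.8 CPM in shControl (0.65 ± 0.12 and 0.70 ± 0.11, adjusted p = 2.2e-04 and 8.3e-05). ANKRD37, a small ankyrin repeat protein, had 8 counts with shRNA1, 4 with shRNA2 and 12 in shControl, and was not tested. UFSP2, on the other strand, overlaps 35.2% of its exon length and had 1297 counts in all.

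Ratios between 6 pairs of related genes are given as a description. Exon length is that of all annotated exons of a gene merged, not of the transcript expressed. The size of each ratio depends on it, but the change between groups does not. In CPM, P4HA2 lay above P4HA1 in every library, and STC2 above STC1 in the hairpin libraries too. Per kilobase of exon, STC2 stood at 0.852 to 0.914 times the level of STC1 in the hairpin libraries and at 3.98 to 4.31 times in shControl. The log2 ratio of STC2 to STC1 was thus lower by 2.23 with the hairpins (difference −2.23), with all 4 hairpin libraries below both controls. LOXL2 stood at 38.4 to 52.4 times the level of LOX per kilobase with the hairpins and at 21.1 to 23.3 times in shControl. PLOD2 stood at 1.41 to 1.59 times PLOD1 with the hairpins and at 1.84 to 1.94 times in shControl, and P4HA2 at 0.549 to 0.625 times P4HA1 with the hairpins and at 0.495 to 0.497 times in shControl. For these pairs the exact two-sided permutation p over the 6 libraries was 0.0667, the smallest that 15 assignments allow. BHLHE41 stayed near a fixed proportion of BHLHE40, at 0.149 to 0.159 times its level per kilobase with the hairpins and 0.161 to 0.163 times in shControl (exact permutation p = 0.133). The ratio of CA9 to CA12 was 0.584 to 0.827 with the hairpins and 0.498 to 0.514 in shControl (exact permutation p = 0.133). None of these 6 tests could reach 0.05, with or without adjustment.

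**Figure D3:**
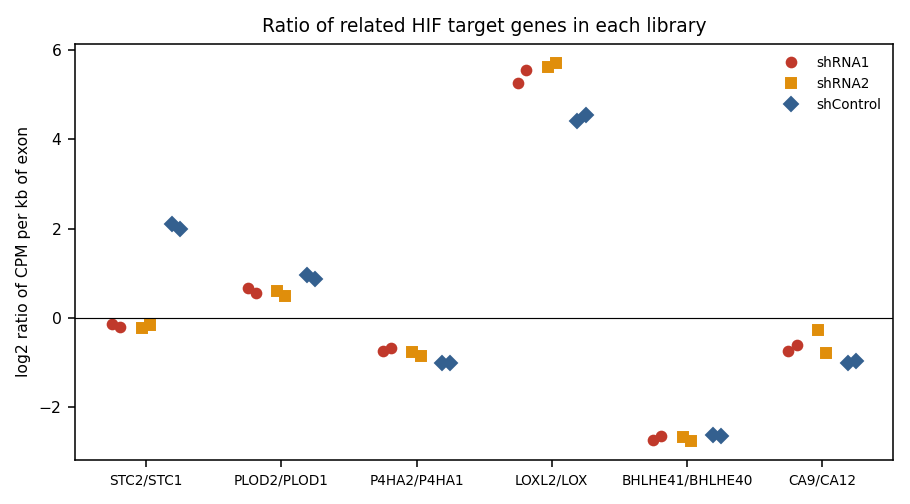
Log2 ratio of CPM per kilobase of exon (y axis) between 6 pairs of related HIF targets in each library of shRNA1, shRNA2 and shControl. The STC2 to STC1 ratio is lower in all hairpin libraries, the LOXL2 to LOX ratio is higher, and the BHLHE41 to BHLHE40 ratios lie close together.

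Per kilobase of exon, the tested targets spanned a wide range of levels, described here with no test. Ranks depend on the same merged exon lengths. IGFBP3 was the highest in every group, with 169 CPM per kilobase with each hairpin and 365 in shControl, and PPFIA4 the lowest, with 0.741 with shRNA1, 0.691 with shRNA2 and 1.32 in shControl. STC2 stood at rank 21 of 30 with each hairpin and at rank 8 in shControl. NDRG1 stood at rank 8 with each hairpin and at rank 4 in shControl. GBE1 stood at rank 9 with each hairpin and at rank 15 in shControl, with 50.4 CPM per kilobase with shRNA1, 49.1 with shRNA2 and 28.6 in shControl. The changes were thus found at high and at low levels alike, from IGFBP3 to PPFIA4.

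Other genes of the HIF pathway were compared for the mean of both hairpins, where 57.5% of all tested genes were called, 28.9% lower and 28.6% higher. The lists of these genes were also chosen with earlier results of these data known. Of 26 other tested HIF targets 16 were lower, 3 higher and 7 not called, with a median log2 fold change of −0.55, equal at this precision to that of the targets outside glycolysis. Among them VEGFA, the angiogenic growth factor, changed by −2.42 ± 0.03, and HMOX1, heme oxygenase 1, by 2.26 ± 0.03. DDIT4, an inhibitor of mTOR signalling, changed by −1.78 ± 0.03. Of 19 tested glycolytic HIF targets 14 were higher and 5 lower, with a median of 0.50. PGAM1, phosphoglycerate mutase, was higher (1.47 ± 0.03) and SLC2A1, the glucose transporter, lower (−1.14 ± 0.03). PFKFB3, a kinase that promotes glycolysis, was higher (1.24 ± 0.03), and so was LDHA, lactate dehydrogenase A (0.99 ± 0.02). Of 15 tested genes of the HIF machinery 6 were higher, 7 lower and 2 not called, with a median of −0.01.

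Within that machinery, EPAS1, which encodes the HIF-2 alpha subunit of these cells, was at 281 and 282 CPM with shRNA1, 283 and 283 CPM with shRNA2, and 542 and 559 CPM in shControl (−0.96 ± 0.03 for the mean of both hairpins, adjusted p = 3.6e-13). HIF1A, which encodes the HIF-1 alpha subunit, differed little at the RNA level (0.09 ± 0.03, adjusted p = 0.0368, higher). Whether these cells make working HIF-1 alpha protein cannot be read from RNA counts. ARNT was not called (−0.01 ± 0.06, adjusted p = 0.913), while ARNT2, from the same list, was lower (−1.01 ± 0.14, adjusted p = 1.82e-05). EGLN3, an oxygen-sensing hydroxylase that is itself a HIF target, was lower (−1.10 ± 0.06), and EGLN1, the main such hydroxylase, was lower by less (−0.35 ± 0.05). EGLN2, another such hydroxylase, went the other way and was higher (0.66 ± 0.08, adjusted p = 6.05e-06). RBX1, the ring finger subunit of the VHL ubiquitin ligase, was higher (1.23 ± 0.07), as was ELOB, elongin B of the same ligase (0.75 ± 0.04). VHL itself was lower at the RNA level (−0.39 ± 0.06, adjusted p = 2.4e-05). Whether the changes of the targets followed from those of EPAS1 was not tested.

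**Figure D4:**
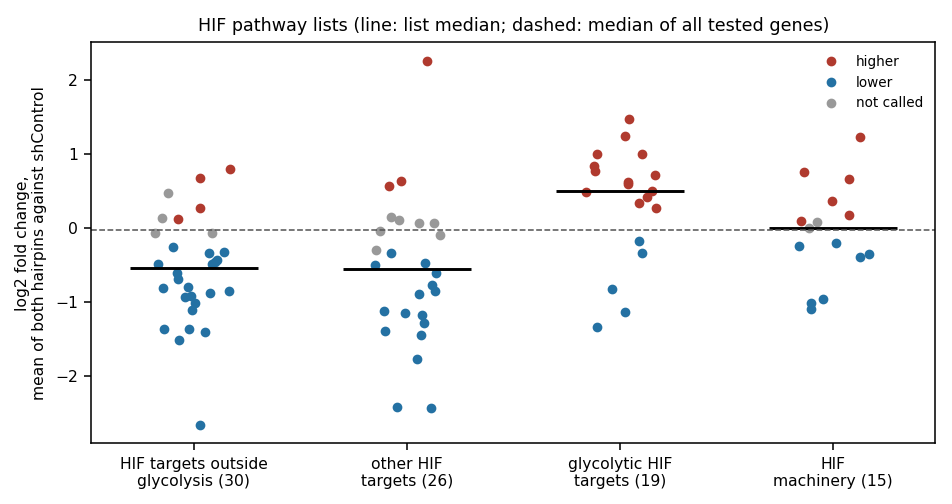
Log2 fold change for the mean of both hairpins against shControl (y axis) of tested genes in 4 HIF pathway lists, coloured by call, with a line at each list's median and a dashed line at the median of all tested genes. The medians are −0.55 for the targets outside glycolysis and for the other targets, 0.50 for the glycolytic targets and −0.01 for the machinery.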

How the data were processed

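The authors deposited 1 table of raw counts, whole numbers for each gene in 6 libraries. RNA was isolated with TRIzol and sequenced in pairs of reads, per the labels' protocols. Per the submitters' processing notes, the authors used FastQC 0.11.9, Trim Galore 0.6.7, HISAT2 2.2.1 and StringTie 2.2.1 on hg38. The sources used here give no counting tool, annotation or strand setting. Counts of overlapping or near-identical genes may therefore be shared.

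With R 4.3.3 and edgeR 4.0.16, genes passing filterByExpr (16039) were scaled by TMM (factors 0.960 to 1.08) and fitted by group over all 6 libraries (quasi-likelihood, robust). Genes were called at a Benjamini-Hochberg adjusted p under 0.05 over all tested genes. One CPM stood for 14.9 to 36.0 counts. DESeq2 1.42.0 was an alternative. Code was tested on simulated data. Exon lengths (all annotated exons of a gene merged) and overlaps come from GENCODE 29, promoters from RefSeq. The members, and the pathway lists and naming rule (all members, 6 core pathway genes, up to 4 of smallest p per list), were chosen with earlier results of these data known. One gene that this rule names is not reported here. Replicate numbers share no stated batch and were not used as a block.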

Additional observations from a re-analysis of the deposited data

How the results depend on the processing

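Over 1140 comparisons of a target's value with an alternative setting, 1097 kept direction and call, 21 lost a call, 15 gained one and 7 changed sign. The changes of sign were CA9 with shRNA1 (−0.049) and for the mean (−0.018) under total counts, and AK4 under total counts (−0.028 with shRNA1, −0.045 with shRNA2, −0.036 for the mean). Leaving out 1 library gave CA9 with shRNA2 a range of −0.062 (without shRNA2 replicate 1) to 0.35, and PLOD2 with shRNA1 a range of −0.077 to 0.02 (without shRNA1 replicate 2). The cause was not tested. For the mean of both hairpins, targets called lower ranged from 21 to 24 of 30 and those called higher from 3 to 4 over the alternatives run. Total counts moved the median log2 change of all genes to −0.18, against −0.03 with TMM, and higher genes to 36.0% of all calls, against 49.7%. Targets were then 24 lower and 3 higher.

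No target was called between shRNA1 and shRNA2 under any alternative run. Over all tested genes that comparison gave 5 calls, but 17 in DESeq2, 69 with no filter, 16 with only the groups compared and 12 to 31 with 1 library left out. Deviations of replicate 1 from the group means were hardly correlated between groups (0.00, −0.02 and −0.06), so no strong shared effect of the replicate number was seen. That check cannot show whether libraries of the same number were grown or prepared together. The replicate block gave 9 calls between the hairpins over all tested genes and, for the mean, 23 targets lower and 4 higher. A fit with only the groups compared is the same fit for the mean of both hairpins and was not repeated. With 1 library of a group left out, its lone partner is taken to vary as the other groups do. CXCR4, RORA and ANKRD37 did not pass the filter on low counts and were not tested.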
